A study of Homo sapiens with 6 samples.

Results

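The genes described here serve protein folding in the endoplasmic reticulum (ER), the unfolded protein response (UPR) that watches over it, and ER-associated degradation (ERAD), which removes proteins that fail to fold. The set has 39 members, taken as the rows of the count table that carry their symbols, of 65746 genes in that table, and 36 of the 39 had enough counts to be tested among 11525 genes. RNA came from SU-DHL-8, an established human line of diffuse large B-cell lymphoma labelled wild type, kept in culture for 24 h with either the plant sterol beta-sitosterol (ST) at 15 µM or its solvent DMSO at the matching concentration. Each group had 3 libraries, 6 in all, and the labels call them replicate experiments of this single line without saying whether the cultures were separate, so the p-values measure only the spread between these samples. The design asks how the sensors, the folding machinery and the degradation machinery of the ER differed after beta-sitosterol from DMSO.

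Proteins bound for the cell surface or for secretion fold in the ER with the help of the chaperone BiP, of lectin chaperones that hold glycoproteins, and of isomerases that form disulfide bonds. When unfolded protein builds up, the membrane sensors IRE1, PERK and ATF6 respond: IRE1 splices the XBP1 mRNA into the form that encodes an active transcription factor, PERK phosphorylates eIF2α and so slows translation, and ATF6 is cleaved to release a transcription factor. Proteins that stay misfolded are passed through a membrane complex built around the ubiquitin ligase HRD1 and are pulled out by the ATPase p97 for destruction by the proteasome. In the B lineage this machinery is best known from plasma cells, which depend on XBP1 to secrete antibody.

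Total counts ran from 26453281 to 35565620 per library. Levels are given as CPM, counts relative to library size after scaling by the TMM method. Treated libraries lay close together, with a median SD over the 36 tested members of 0.04 log2 units against 0.18 between the DMSO libraries, and DMSO replicate 2 stood furthest from the others (correlations of log2 CPM across genes of 0.982 and 0.972 with DMSO replicates 1 and 3, against 0.991 between those). All 6 B cell markers examined were detected: 2 rose, 1 fell and 3 did not pass. CD79A, part of the B cell receptor, rose from 371 ± 48.2 to 767 ± 31.3 CPM (SD, n = 3 libraries each) and MS4A1, which encodes CD20, from 3.92 ± 0.63 to 18.3 ± 1.36 CPM, whereas PAX5, a B cell identity factor, fell from 660 ± 43.5 to 208 ± 9.36 CPM. No T cell marker exceeded 0.272 CPM in any library, and CD2, CD3E, CD3G, the myeloid marker FCGR3A and the fibroblast marker DCN were at 0 in all 6 libraries. Summed fibroblast markers ran from 0.0577 to 0.125 CPM in DMSO and from 0.681 to 1.16 CPM in treated libraries, and summed myeloid markers from 4.61 to 7.04 and from 6.35 to 8.4 CPM. Of 6 plasma cell markers, which include the member XBP1, 2 were called higher (XBP1 and PRDM1) and 1 lower (IRF4). Their summed level was 504 to 682 CPM in DMSO and 330 to 336 CPM in treated libraries, with IRF4 alone at 453 ± 79.6 and 185 ± 4.74 CPM. Without IRF4 the sum was higher after treatment, at 108 to 138 CPM in DMSO and 143 to 151 CPM in treated libraries. Most of that sum was the member XBP1, at 80.8 ± 2.17 CPM in DMSO and 110 ± 4.42 CPM after beta-sitosterol. JCHAIN, the next largest, had a lower mean after treatment, at 31.8 ± 15.2 and 27.0 ± 2.22 CPM, and did not pass (edgeR adjusted p = 0.546). SDC1 was at or near 0 throughout, and the part of these markers in the results below was not tested.

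After beta-sitosterol, 11 of the 36 tested members rose and 7 fell (edgeR's quasi-likelihood test, Benjamini-Hochberg adjusted p under 0.05), that is 30.6% and 19.4%. Over all 11525 genes tested, 19.0% rose and 21.8% fell. Values of the groups did not overlap for 13 members that lay above DMSO (36.1%) and for 9 that lay below (25%), against 27.0% and 29.1% of all genes. The median log2 fold change was 0.01 over the members and −0.04 over all genes. The members did not change as a block: each role except the disulfide isomerases and the BiP-type chaperones held both rises and falls. The largest changes among the tested members were the 3.37-fold fall of SYVN1, which encodes the ubiquitin ligase HRD1, and the rises of DNAJB9, PPP1R15A and UGGT2, which were each over 2-fold (2.24, 2.19 and 2.05). In such bulk samples, fewer cells with a transcript and less of it per cell cannot be told apart.

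**Figure D1:**
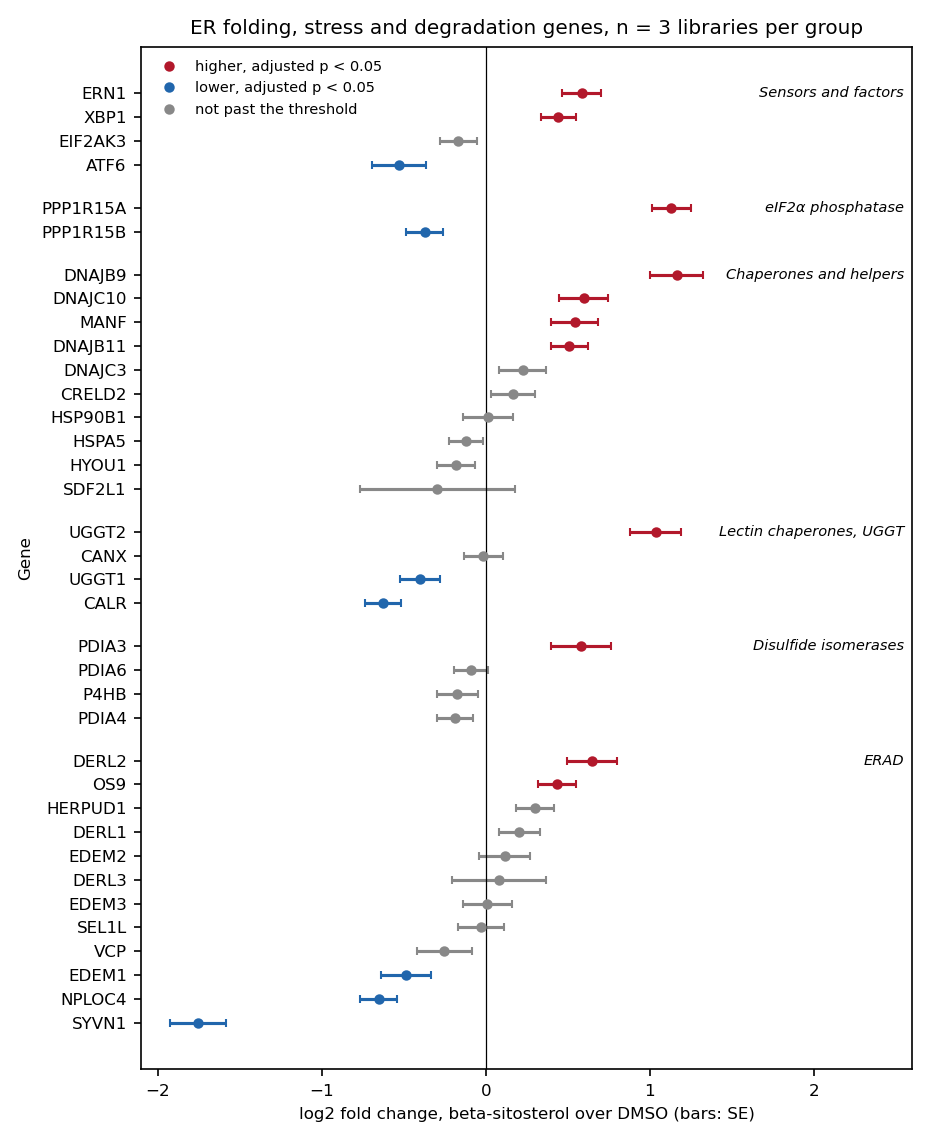
Log2 fold change of the 36 tested members, beta-sitosterol over DMSO (x axis; bars are the SE, n = 3 libraries per group), grouped by role on the y axis. Red points are the 11 members that rose, blue points the 7 that fell and grey points the 18 that did not pass. SYVN1, at −1.75, lies alone on the left, and DNAJB9, PPP1R15A and UGGT2 lie beyond 1 on the right.

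ERN1 encodes IRE1, the sensor that cuts XBP1 mRNA, and lies on chromosome 17 from 64039142 to 64130144 (RefSeq coordinates, GRCh38.p14, here and for the other genes). It stood at 18.8, 17.6 and 18.7 CPM in DMSO replicates 1 to 3 and at 27.8, 26.6 and 28.2 CPM in treated replicates 1 to 3. Every treated library was above every DMSO library, and the log2 fold change was 0.58 ± 0.12 (SE; edgeR adjusted p = 0.00498). XBP1, the target of IRE1 (chromosome 22, 28794560 to 28800569), rose with it. It read 78.3, 81.5 and 82.5 CPM in DMSO and 108, 115 and 106 CPM after beta-sitosterol, again without overlap, for a log2 difference of 0.44 ± 0.11 (edgeR adjusted p = 0.0116). The call was lost without treated replicate 1, 2 or 3, at edgeR adjusted p = 0.057, 0.081 and 0.0522. The counts are per gene and do not tell spliced from unspliced XBP1 mRNA.

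ATF6, the sensor that is cut in the Golgi to free its transcription factor (chromosome 1, 161766320 to 161964070), moved the other way. Its levels were 66.2, 87.2 and 57.3 CPM in DMSO and 47.4, 50.9 and 47.6 CPM in treated libraries. All treated values lay below the DMSO values, which themselves spread widely, and the log2 fold change was −0.53 ± 0.16 (edgeR adjusted p = 0.0314). Without DMSO replicate 1 the edgeR adjusted p was 0.0629, and without treated replicates 1, 2 and 3 it was 0.111, 0.0835 and 0.109. EIF2AK3, which encodes PERK, read 29.1, 29.5 and 29.7 CPM in DMSO and 26.7, 25.8 and 26.1 CPM after beta-sitosterol. The groups did not overlap, with the treated libraries below, but the difference of −0.17 ± 0.11 log2 units did not pass the test (edgeR adjusted p = 0.261). CREB3L2, a membrane-bound transcription factor related to ATF6, was listed at 0 in all 6 libraries, as were 47323 of the 65746 genes, and such a listing is not read as absence of the transcript.

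PPP1R15A and PPP1R15B encode alternative subunits that direct a phosphatase to eIF2α and so undo what PERK does. PPP1R15A, known as GADD34, is the form whose gene is switched on in stress, whereas PPP1R15B, known as CReP, is the constitutive form. The pair moved in opposite directions. PPP1R15A (chromosome 19, 48872421 to 48876058) stood at 39.5, 45.4 and 46.5 CPM in DMSO and at 93.0, 102 and 93.5 CPM after beta-sitosterol. The lowest treated value was well above the highest DMSO value, and the log2 fold change was 1.13 ± 0.12 (edgeR adjusted p = 0.000323). PPP1R15B (chromosome 1, 204395826 to 204411817) read 138, 145 and 125 CPM in DMSO and 107, 104 and 104 CPM in treated libraries. All treated values were lower, for a log2 difference of −0.37 ± 0.11 (edgeR adjusted p = 0.0274). This call was lost without DMSO replicate 1 (edgeR adjusted p = 0.0639) and without treated replicate 1, 2 or 3 (0.0987, 0.126 and 0.12), and with no filter on low counts (0.0686). Summed over both genes, the level was 180 ± 9.44 CPM in DMSO and 201 ± 4.18 CPM after beta-sitosterol, so the sum differed less than either gene did.

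The stretch just before the start of PPP1R15A is shown because that gene had the smallest adjusted p of the members that rose. It runs 221 bases at chr19:48872171-48872391 on the plus strand, from RefSeq on GRCh38.p14. The 29 bases nearest the start are left out because an annotated exon covers them. Capitals mark CCACG in either orientation, the short core to which the UPR factors bind as part of the ER stress element, and TGACGTCA, the palindrome bound by ATF and CREB factors.
PPP1R15A: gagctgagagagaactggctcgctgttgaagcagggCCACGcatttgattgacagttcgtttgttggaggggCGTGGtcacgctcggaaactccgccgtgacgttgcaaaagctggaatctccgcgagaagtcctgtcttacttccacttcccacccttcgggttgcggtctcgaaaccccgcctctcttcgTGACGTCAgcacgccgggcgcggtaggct
CCACG was present 2 times and TGACGTCA 1 time, the latter at bases −58 to −51 before the start. The palindrome TGACGTCA was found in 2.25% of 27305 genes with a promoter window of 250 bases before to 50 after the start, and its search was added after the sequences had been seen. A match to these letters is a description and not a bound site.

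Levels of genes that act downstream of PERK and its effector ATF4, kept as a separate list of 9, are set beside these. ATF3, a stress-inducible transcription factor, rose from 5.86 ± 1.75 to 36.2 ± 1.98 CPM, a log2 difference of 2.63 ± 0.22 (edgeR adjusted p = 0.000165). It was the only gene of the 9 to pass (11.1% higher, against 19.0% of all genes tested). ATF4 itself was at 1388 ± 164 CPM in DMSO and 1333 ± 8.91 CPM after beta-sitosterol (edgeR adjusted p = 0.725). DDIT3, which encodes the pro-apoptotic factor CHOP, was at 26.5 ± 5.28 and 34.1 ± 2.24 CPM (log2 fold change 0.36 ± 0.17, edgeR adjusted p = 0.113), and CEBPG, a partner of ATF4, at 66.3 ± 7.87 and 79.2 ± 2.58 CPM (edgeR adjusted p = 0.131). The ATF4 targets TRIB3, ASNS, CHAC1 and SESN2 and the gene CEBPB had log2 fold changes between −0.05 and 0.23, none past the threshold. PPP1R15A and ATF3 thus rose where the other 8 genes of the list did not pass the test, and whether the genes differed from one another in their change was not tested.

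**Figure D2:**
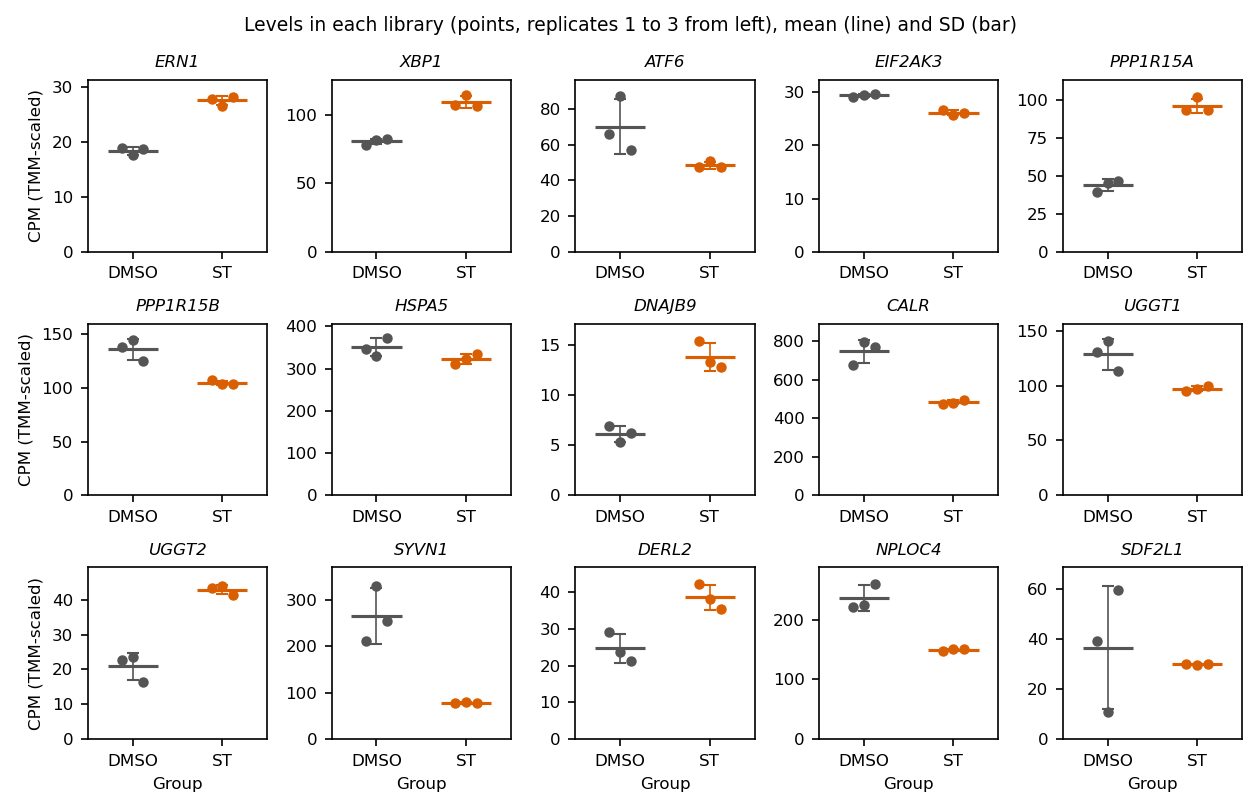
CPM in each library (y axis, from 0) for 15 members; points are replicates 1 to 3 of DMSO (grey) and of beta-sitosterol (ST, orange), lines are group means and bars the SD. PPP1R15A, DNAJB9 and UGGT2 lie well above DMSO, SYVN1 falls from 211 to 330 CPM to between 77.4 and 79.2 CPM, and SDF2L1 spreads from 11.01 to 59.7 CPM within DMSO.

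Of the 10 HSP70 and HSP90 chaperones, their J-domain partners and small folding helpers, 4 rose (40%), 0 fell and 6 did not pass. Of all genes tested, 19.0% rose and 21.8% fell. The 4 were partners and helpers, not the abundant chaperones themselves. HSPA5, which encodes BiP (chromosome 9, 125234853 to 125241343), read 347, 331 and 373 CPM in DMSO and 312, 323 and 334 CPM after beta-sitosterol. The groups overlapped and the difference of −0.12 ± 0.10 log2 units did not pass (edgeR adjusted p = 0.394). With the trend of fold change over transcript length removed, it was −0.41 and passed (edgeR adjusted p = 0.0139). HSP90B1, the ER form of HSP90, read 442, 510 and 338 CPM in DMSO and 423, 442 and 437 CPM in treated libraries. Its treated values sat inside the DMSO range (log2 fold change 0.01 ± 0.15, edgeR adjusted p = 0.948). HYOU1, a large HSP70 relative that helps BiP exchange its nucleotide, was at 291 ± 31.5 and 257 ± 5.51 CPM, also not past the threshold (edgeR adjusted p = 0.243).

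Among the BiP partners with J domains, DNAJB9 changed most. This gene for ERdj4, which brings BiP to substrates and to IRE1 (chromosome 7, 108569874 to 108574850), stood at 6.93, 5.33 and 6.23 CPM in DMSO and at 15.4, 13.3 and 12.8 CPM after beta-sitosterol. The groups were far apart, for a log2 difference of 1.16 ± 0.16 (edgeR adjusted p = 0.000963). DNAJB11, a soluble partner that hands unfolded chains to BiP, read 51.8, 48.4 and 44.8 CPM against 69.8, 66.9 and 69.7 CPM, a log2 difference of 0.51 ± 0.11 (edgeR adjusted p = 0.00764). DNAJC10, a J protein that also reduces disulfide bonds for ERAD, read 82.8, 92.3 and 65.0 CPM against 123, 126 and 114 CPM, a log2 difference of 0.60 ± 0.15 (edgeR adjusted p = 0.0129). In both genes each treated library exceeded each DMSO library, and the call of DNAJC10 was lost without treated replicate 1 or 2 (edgeR adjusted p = 0.057 and 0.0617). DNAJB11 kept its call with each library left out, but with length and GC trends removed its log2 fold change was 0.28 and did not pass (edgeR adjusted p = 0.059). DNAJC3, a J protein first described as an inhibitor of eIF2α kinases, was at 23.5 ± 1.71 and 27.5 ± 3.84 CPM and did not pass (edgeR adjusted p = 0.237).

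Among the small helpers, MANF passed the test and CRELD2 and SDF2L1 did not, and differences between these genes were not tested. MANF, which holds BiP in its substrate-bound state, read 61.9, 79.0 and 58.1 CPM in DMSO and 90.8, 101 and 97.7 CPM after beta-sitosterol. It rose without overlap, by 0.54 ± 0.14 log2 units (edgeR adjusted p = 0.0169), a call that was lost without DMSO replicate 1 (0.0668) and without treated replicate 2 or 3 (0.0791 and 0.0676). With the length trend removed, the log2 fold change of MANF was 0.24 (edgeR adjusted p = 0.313). CRELD2, another small ER protein, was at 30.5 ± 4.0 and 34.3 ± 0.60 CPM (edgeR adjusted p = 0.34). Leaving out DMSO replicate 3 brought its adjusted p to 0.0421. SDF2L1, a partner of ERdj proteins, falls outside the naming rule and is shown because its DMSO libraries were the most scattered of any tested member. It read 39.02, 11.01 and 59.7 CPM in DMSO and 30.1, 29.4 and 29.9 CPM in treated libraries, so the treated libraries were nearly identical while DMSO replicate 2 was far below its fellows. With all libraries the difference was −0.29 ± 0.47 (edgeR adjusted p = 0.645), and without DMSO replicate 2 it was −0.73 (edgeR adjusted p = 0.000547). The longest annotated SDF2L1 transcript has 65.5% GC. Over the 36 tested members the deviation of DMSO replicate 2 from the DMSO mean went with GC content at Pearson r = −0.49, as it did over 11376 genes at r = −0.48. These are correlations across genes of the same library, given as descriptions, and the part of GC content in the SDF2L1 values was not tested.

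The ER stress element, CCAAT and CCACG held 9 bases apart (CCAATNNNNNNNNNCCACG, searched on both strands), is the classical site of ATF6 and XBP1 with NF-Y in chaperone promoters. It was present in the promoter window of 7 of the 36 members matched to the RefSeq table (19.4%) and in 25 of all 27305 genes there (0.0916%), these 7 included. Because the element is known from chaperone promoters, its share among the members is a description and not a finding. The 7 were HSPA5, HSP90B1, CANX, CALR, PDIA6, CRELD2 and XBP1. They are printed with the element in capitals because they show which members carry this form of the site in full. Forms with another spacing were not searched for. Elements that read CGTGG first lie in the opposite orientation, and where an annotated exon was near only the element is given.
HSPA5, chr9:125241376-125241424, minus strand: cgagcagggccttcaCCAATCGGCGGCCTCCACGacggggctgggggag
CALR, chr19:12938369-12938417, plus strand: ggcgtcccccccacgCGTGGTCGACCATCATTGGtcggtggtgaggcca
CRELD2, chr22:49918539-49918587, plus strand: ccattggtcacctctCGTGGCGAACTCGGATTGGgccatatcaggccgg
HSP90B1, chr12:103930216-103930234, plus strand: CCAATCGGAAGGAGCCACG
HSP90B1, chr12:103930321-103930339, plus strand: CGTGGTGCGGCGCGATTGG
CANX, chr5:179698778-179698796, plus strand: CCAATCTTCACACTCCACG
PDIA6, chr2:10812853-10812871, minus strand: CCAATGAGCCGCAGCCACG
XBP1, chr22:28800603-28800621, minus strand: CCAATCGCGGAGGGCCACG
The element lay at bases −66 to −48 before the start of HSPA5, −225 to −207 before CALR, −80 to −62 before CRELD2 and −52 to −34 before XBP1. Carriers did not share a direction: XBP1 rose, CALR fell and the other 5 did not pass the test, with a median log2 fold change of −0.02. Outside the set, 18 genes carried the element, of which 9 were tested, and 5 of those rose and 1 fell. Of all genes tested, 19.0% rose and 21.8% fell, and whether carriers differed from other genes was not tested.

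Shorter sites were more common. CCACG alone, which is contained in the ER stress element and, read on the other strand as CGTGG, in TGACGTGG, was found in 28 of 36 members (77.8%) and in 42.1% of all genes. TGACGTGG, the core bound by XBP1 and ATF6, was found in DNAJC10, HYOU1 and VCP (8.33% of members, 0.927% of all genes). TGATGNAA, the composite site of ATF4 with C/EBP partners, was found in CREB3L2, HERPUD1 and PPP1R15B (8.33% against 4.46%). Examples of both are given, from HYOU1 for the former and from HERPUD1 and PPP1R15B for the latter, in capitals.
HYOU1, chr11:119057371-119057408, minus strand: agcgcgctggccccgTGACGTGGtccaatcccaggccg
HERPUD1, chr16:56931951-56931988, plus strand, site in the opposite orientation: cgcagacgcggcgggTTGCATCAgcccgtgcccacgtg
PPP1R15B, chr1:204412022-204412059, minus strand: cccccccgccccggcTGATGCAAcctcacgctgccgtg
Of these, PPP1R15B fell and DNAJC10 rose, and HYOU1, VCP and HERPUD1 did not pass.

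Among the lectin chaperones and the enzymes that return glycoproteins to them, 1 of 4 rose and 2 fell, against 19.0% and 21.8% of all genes. CALR encodes calreticulin, the soluble lectin chaperone (chromosome 19, 12938609 to 12944489). It read 678, 794 and 770 CPM in DMSO and 475, 480 and 495 CPM after beta-sitosterol. Treated values lay far below DMSO, for a log2 difference of −0.63 ± 0.11 (edgeR adjusted p = 0.00268). CANX, for the membrane-bound partner calnexin, read 639, 704 and 557 CPM against 624, 645 and 610 CPM. Its groups overlapped fully (log2 fold change −0.02 ± 0.12, edgeR adjusted p = 0.929), so calreticulin fell where no difference was detected for calnexin. Whether the 2 changes differed from each other was not tested.

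UGGT1 and UGGT2 encode the folding sensor that puts a glucose back on glycoproteins that are not yet folded, UGGT1 being the main enzyme. They moved in opposite directions. UGGT1 (chromosome 2, 128091200 to 128195677) read 131, 141 and 113 CPM in DMSO and 95.5, 96.9 and 99.7 CPM after beta-sitosterol, a log2 difference of −0.40 ± 0.12 (edgeR adjusted p = 0.0289). UGGT2 (chromosome 13, 95801580 to 96053401) read 22.8, 23.5 and 16.5 CPM in DMSO and 43.4, 43.9 and 41.4 CPM in treated libraries, a log2 difference of 1.04 ± 0.16 (edgeR adjusted p = 0.00149). Neither gene had overlapping groups, but UGGT1 lost its call without DMSO replicate 1 (edgeR adjusted p = 0.0719) and without treated replicate 1, 2 or 3 (0.119, 0.118 and 0.099), with no filter on low counts (0.0534) and with the length trend removed (0.0824). On the authors' TPM, which divides by transcript length, UGGT1 stood at 25.8 and UGGT2 at 5.54 in DMSO, and at 16.2 and 9.47 after beta-sitosterol, so the rarer gene came closer to the commoner.

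Of the protein disulfide isomerases, which make and reshuffle disulfide bonds, 1 of 4 rose and 0 fell, against 19.0% and 21.8% of all genes. PDIA3, known as ERp57 and the isomerase that works with calreticulin and calnexin, read 140, 194 and 115 CPM in DMSO and 223, 231 and 217 CPM after beta-sitosterol. All treated libraries were higher, though the DMSO libraries were spread widely, and the log2 fold change was 0.58 ± 0.18 (edgeR adjusted p = 0.0333). It lost the call without DMSO replicate 1 (edgeR adjusted p = 0.115) and without treated replicate 1, 2 or 3 (0.0958, 0.105 and 0.0848), and also with the length trend removed (0.0684). P4HB, which encodes PDI itself, read 411, 361 and 467 CPM against 357, 356 and 386 CPM (log2 fold change −0.17 ± 0.12, edgeR adjusted p = 0.297, and 0.0137 without DMSO replicate 2). PDIA6 read 222, 224 and 218 CPM against 203, 201 and 219 CPM (log2 fold change −0.09 ± 0.10, edgeR adjusted p = 0.516). In both the groups overlapped. PDIA4 lay lower in every treated library, at 156 ± 9.70 against 137 ± 5.67 CPM, without passing the test (edgeR adjusted p = 0.202). It passed without DMSO replicate 2 (log2 fold change −0.24, edgeR adjusted p = 0.0271) and with the length trend removed (−0.47, 0.00853). PDIA3, HSP90B1 and HSPA5 have near-identical copies or pseudogenes in the genome, and how the authors counted reads that match several places is not given in the sources used here, so their counts are uncertain.

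In the degradation machinery, 2 of 12 tested members rose (16.7%), 3 fell (25%) and 7 did not pass, shares close to the 19.0% and 21.8% of all genes tested. SYVN1, for the ubiquitin ligase HRD1 at the centre of the ERAD complex (chromosome 11, 65127279 to 65134519), fell most. It read 211, 330 and 254 CPM in DMSO and 78.7, 79.2 and 77.4 CPM after beta-sitosterol. The treated libraries were almost alike and all far below the lowest DMSO library, for a log2 difference of −1.75 ± 0.17 (edgeR adjusted p = 0.000238). The span of SYVN1 overlaps MRPL49, a mitochondrial ribosome gene at 135 CPM in DMSO and 158 CPM after beta-sitosterol that did not pass (edgeR adjusted p = 0.211), and use of strand in the counting is not given in the sources used here. SEL1L, the partner that stabilises HRD1, read 106, 116 and 85.7 CPM against 108, 97.2 and 95.5 CPM. Its groups overlapped, and the difference of −0.03 ± 0.14 log2 units did not pass (edgeR adjusted p = 0.878).

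The stretch before the start of SYVN1 is printed because that gene had the largest change of the members. It holds 236 bases at chr11:65134534-65134769 on the minus strand, with capitals for CCACG in either orientation. The 14 bases nearest the start are left out, as an annotated exon covers them.
SYVN1: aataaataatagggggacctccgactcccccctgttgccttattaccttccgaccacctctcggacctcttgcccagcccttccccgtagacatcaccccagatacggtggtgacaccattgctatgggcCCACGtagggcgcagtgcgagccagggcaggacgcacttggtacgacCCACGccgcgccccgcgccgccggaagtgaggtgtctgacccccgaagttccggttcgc
CCACG was present 2 times, and none of the ER stress element, TGACGTGG, TGATGNAA and TGACGTCA was found in the promoter window, which says only that these letters are not there.

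Genes around the ligase went both ways. NPLOC4, a cofactor by which p97 grips ubiquitinated proteins (chromosome 17, 81556885 to 81637112), read 222, 225 and 261 CPM in DMSO and 148, 151 and 151 CPM after beta-sitosterol. It fell without overlap, by 0.65 log2 units (log2 fold change −0.65 ± 0.11, edgeR adjusted p = 0.00254). VCP, for p97 itself, read 495, 337 and 522 CPM against 381, 375 and 380 CPM. The groups overlapped only through DMSO replicate 2 (log2 fold change −0.25 ± 0.17, edgeR adjusted p = 0.255), and without that library the difference was −0.43 (edgeR adjusted p = 0.000198). EDEM1, a mannose-trimming lectin that marks glycoproteins for ERAD, fell from 227 ± 45.1 to 162 ± 3.40 CPM (log2 difference −0.49 ± 0.15, edgeR adjusted p = 0.0347). That call was lost without DMSO replicate 1 or 3 (edgeR adjusted p = 0.111 and 0.0746) and without treated replicate 1, 2 or 3 (0.1, 0.116 and 0.116). Its relatives EDEM2 (37.4 ± 7.08 and 40.4 ± 0.79 CPM) and EDEM3 (63.5 ± 10.1 and 63.9 ± 5.68 CPM) did not pass (edgeR adjusted p = 0.585 and 0.969).

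DERL2, a member of the derlin family that helps move substrates across the membrane, rose. It read 29.03, 23.6 and 21.4 CPM in DMSO and 42.2, 38.3 and 35.4 CPM after beta-sitosterol, without overlap (log2 fold change 0.65 ± 0.15, edgeR adjusted p = 0.01, and 0.0568 without treated replicate 1). Its span overlaps MIS12, a kinetochore gene that also rose, from 26.3 to 40.6 CPM (edgeR adjusted p = 0.0135), and the reads of the overlap cannot be assigned to either with certainty. OS9, a lectin that delivers glycoproteins to the ligase, read 140, 172 and 160 CPM against 207, 216 and 215 CPM, again without overlap (log2 fold change 0.43 ± 0.12, edgeR adjusted p = 0.0178). Leaving out DMSO replicate 1 gave an edgeR adjusted p of 0.0552 for OS9, and leaving out treated replicates 1, 2 and 3 gave 0.0667, 0.0878 and 0.0799. Both relatives of DERL2 missed the threshold: DERL1 was at 61.5 ± 7.36 and 70.9 ± 1.64 CPM (edgeR adjusted p = 0.226), and DERL3 was barely present, at 1.14 ± 0.27 and 1.2 ± 0.24 CPM (edgeR adjusted p = 0.84). The span of DERL3 overlaps SMARCB1, which fell from 208 to 162 CPM (edgeR adjusted p = 0.0368), so the few counts of DERL3 are uncertain too. HERPUD1, a scaffold of the HRD1 complex and a classical UPR target, was higher in all 3 treated libraries, at 57.5 ± 2.22 against 46.6 ± 3.30 CPM, but did not pass (log2 fold change 0.30 ± 0.11, edgeR adjusted p = 0.0648, and 0.0275 without DMSO replicate 3). WFS1, a regulator of ER calcium and of ATF6, had at most 2 counts in a library and was not tested, and SELENOS, a partner of p97 in the ER membrane, was listed at 0 in all 6.

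**Figure D3:**
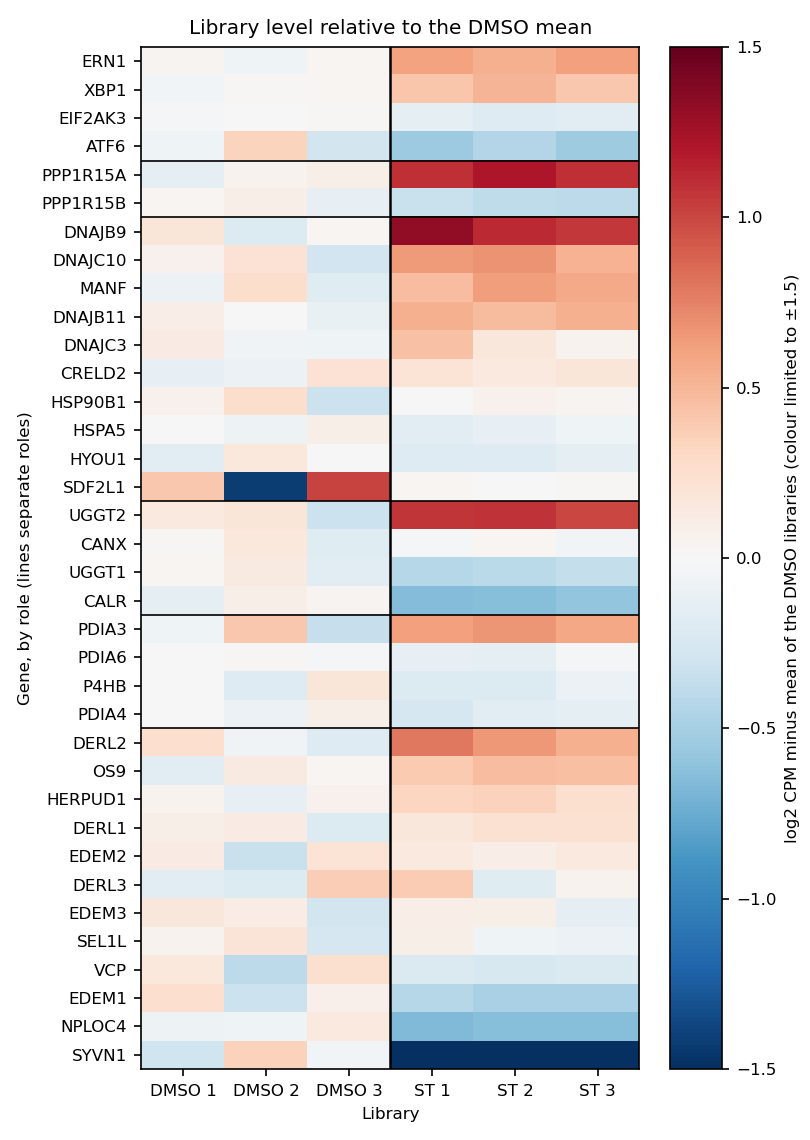
Log2 CPM of each tested member in each library minus the mean of the DMSO libraries (colour, limited to ±1.5), with genes in rows by role and libraries in columns. The 3 treated columns look alike, with SYVN1 dark blue and PPP1R15A, DNAJB9 and UGGT2 red, while the DMSO columns differ among themselves, most of all in SDF2L1.

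The summed level of each role was also taken, in which abundant members weigh most. The sum over ERAD genes went from 1674 ± 77.1 to 1355 ± 14.1 CPM (a change of −19.0%) and that over lectin chaperones and glucosyltransferases from 1530 ± 115 to 1250 ± 14.7 CPM (−18.3%), and in both every treated library was below every DMSO library. In the first, the group means of SYVN1, VCP, NPLOC4 and EDEM1 were lower after beta-sitosterol and that of OS9 was higher. In the second, the mean of CALR was lower by more than that of any other member of the role. The other sums changed less: 1363 ± 80.5 and 1406 ± 18.7 CPM for the BiP-type chaperones and helpers, 940 ± 22.6 and 935 ± 25.5 CPM for the isomerases, and 199 ± 14.9 and 212 ± 5.19 CPM for the sensors and their factors. Over all members the sum was 5886 ± 127 CPM in DMSO and 5360 ± 39.1 CPM after beta-sitosterol (−8.94%). These sums are descriptions with no test.

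Per length, on the authors' TPM, the most abundant members in DMSO were CALR (mean 545), HSPA5 (425) and VCP (201), and among the least were ERN1 (6.65), UGGT2 (5.54) and DERL3 (0.457). Across the 36 tested members the log2 fold change was lower where the DMSO level per length was higher (Pearson r = −0.42, Spearman rho = −0.58), against r = −0.30 and rho = −0.15 over all 11525 genes. DNAJB9, UGGT2, DERL2 and ERN1 sat at the low end with rises, and CALR at the high end with a fall. DERL3, the lowest, and HSPA5 and VCP, next to CALR at the high end, did not pass the test. Nor did EIF2AK3, CRELD2, HERPUD1 and DNAJC3, low in level at 10.2 to 14.1 TPM. These are correlations across genes that share the same 6 libraries, and the DMSO level enters both axes, so they are descriptions only.

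**Figure D4:**
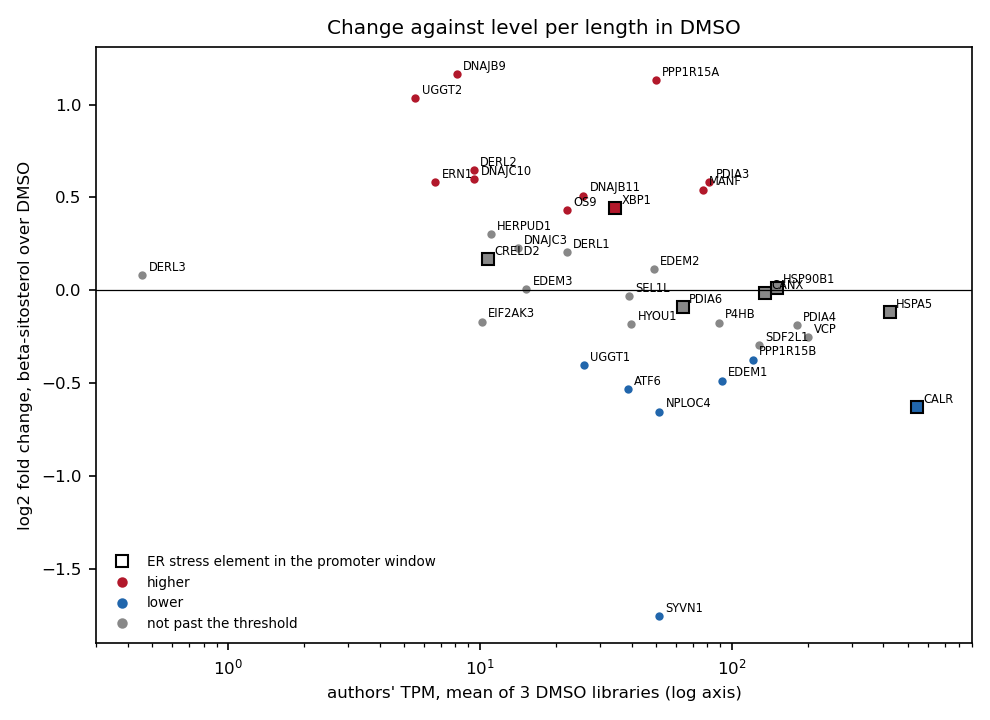
Log2 fold change (y axis) against the authors' mean TPM in DMSO (x axis, log scale) for the 36 tested members; red rose, blue fell, grey did not pass, and squares carry the ER stress element in the promoter window. Members under 10 TPM are DNAJB9, UGGT2, ERN1, DERL2 and DNAJC10, which rose, and DERL3, the lowest at 0.457, which did not pass. EIF2AK3, CRELD2, HERPUD1 and DNAJC3, just above at 10.2 to 14.1 TPM, did not pass. CALR at 545 fell, HSPA5 at 425 and VCP at 201 did not pass, and the 7 squares spread from rises to falls.

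A further list of 94 ER pathway genes that are no members, 87 of them tested, gives the wider setting. In it 27 rose (31%) and 6 fell (6.9%), with a median log2 fold change of 0.17, against 19.0% and 21.8% of all genes and a median of −0.04. With single libraries left out the counts ran from 16 to 32 higher (16 without any 1 treated library) and from 3 to 14 lower (14 without DMSO replicate 2, 3 without any 1 treated library), and on log2(TPM + 1) 3 were higher and 7 lower. Of 25 tested genes for folding, oxidation and glycan trimming, 8 rose and 2 fell: ERO1B, an oxidase that recharges PDI, rose from 4.03 ± 0.43 to 8.89 ± 1.31 CPM (edgeR adjusted p = 0.00175), and TXNDC11 fell from 75.6 ± 12 to 48.1 ± 2.65 CPM (edgeR adjusted p = 0.00671). TMX2 and DNAJC1 rose by 0.74 and 0.93 log2 units. Among 29 further degradation genes, 7 rose and 3 fell. AUP1, which recruits a ubiquitin-conjugating enzyme to the HRD1 complex, rose from 158 ± 9.36 to 345 ± 10.2 CPM (log2 difference 1.13 ± 0.11, edgeR adjusted p = 0.000227), and the ubiquitin ligase gene RNF5 and FAM8A1, an HRD1 complex member, rose by 0.87 and 0.88 log2 units. The rhomboid protease gene RHBDD1 fell from 27.8 ± 0.45 to 15.9 ± 1.19 CPM (edgeR adjusted p = 0.00146). HERPUD2 (log2 fold change −0.77, edgeR adjusted p = 0.0181) and the ubiquitin-conjugating enzyme gene UBE2G2 (−0.37, edgeR adjusted p = 0.03) also fell. UBE2J1, another such enzyme gene, lay lower in every treated library without passing (−0.47, edgeR adjusted p = 0.0884). SYVN1 thus fell while AUP1 and FAM8A1, whose products sit in the same complex, rose, but not all genes around it rose.

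Of 18 tested genes for stress signalling, 7 rose (38.9%) and 1 fell (5.56%), against 19.0% and 21.8% of all genes tested. ATF6B, the paralog of ATF6, fell as ATF6 did, from 128 ± 16.7 to 79.6 ± 5.26 CPM (log2 difference −0.69 ± 0.13, edgeR adjusted p = 0.00437). DDRGK1, which anchors the UFM1 ligase to the ER, rose from 86.5 ± 5.10 to 150 ± 1.25 CPM (edgeR adjusted p = 0.000878), EIF2S1, which encodes eIF2α itself, rose by 0.65 and CREB3, a relative of ATF6 in the ER membrane, by 0.85 log2 units. Receptors that lead pieces of the ER into autophagosomes made the list with the highest median, 0.79, with 4 of 6 tested rising and 0 falling. RTN3 rose from 112 ± 13.7 to 207 ± 2.92 CPM (edgeR adjusted p = 0.000949), ATL3 from 9.70 ± 1.82 to 17.9 ± 1.57 CPM, CALCOCO1 from 21.8 ± 2.09 to 35.3 ± 1.27 CPM and CCPG1 from 1.40 ± 0.34 to 3.01 ± 0.46 CPM. TEX264 (log2 fold change 0.49 ± 0.20, edgeR adjusted p = 0.0821) and SEC62 (0.10 ± 0.20) did not pass.

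The called members differed in how often the call held with a library left out or on another scale. Without any 1 treated library, calls over all genes also dropped, from 2185 to between 1501 and 1510 higher and from 2512 to between 1593 and 1654 lower. A lost call therefore does not by itself show that a member rested on 1 library. PPP1R15A, CALR, UGGT2, SYVN1 and NPLOC4 kept the call in all 17 alternative analyses, and ERN1, DNAJB9 and DNAJB11 kept it with each library left out in turn but not on the TPM scales. The other 10 lost it when at least 1 library was left out. Without DMSO replicate 1 or any 1 treated library, 3 of the 36 members were called lower, and without DMSO replicate 2, 11 were. Over all genes, 2038 of 11715 were lower without DMSO replicate 1 and 3549 of 11724 without DMSO replicate 2. Without treated replicates 1, 2 and 3, respectively, 6, 6 and 7 members were called higher. On the authors' TPM scale, log2(TPM + 1), where the median of all genes was −0.19 and of the members −0.22, 2 members were called higher (PPP1R15A and UGGT2) and 5 lower, and rises made up 24.3% of all called genes against 46.5% in CPM. ERN1 and XBP1 were not called higher on that scale. Listed TPM summed to 39.5% of a complete total in DMSO replicate 2. It was 64.6% and 69.2% in DMSO replicates 1 and 3, and 57.0% to 57.8% in treated libraries. ERN1 read 7.72, 4.60 and 7.64 TPM in DMSO replicates 1 to 3 and 8.34, 7.83 and 8.21 TPM in treated replicates 1 to 3. The part of these totals in the lost calls was not tested. No member changed the sign of a call in any of the 17.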

How the data were processed

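RNA-seq of 3 DMSO and 3 beta-sitosterol libraries was analysed from a table of whole read counts per gene, not normalized, as the authors deposited it. A second deposited table gives TPM, the same counts divided by the authors for length and library. Listed TPM summed to between 39.5% and 69.2% of a complete TPM total per library, and TPM was used only for levels between genes and as an alternative scale. Tools named in the submitters' processing notes, without their roles, are featureCounts 2.0.1, STAR 2.7.10, StringTie 2.2.1 and fastp 0.23.2, and the build is GRCh38. Annotation, strand and the counting of reads with several matches are not stated in the sources at hand. Of 65807 rows, 61 repeats of a symbol were dropped.

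Counts were filtered with filterByExpr, scaled by TMM and tested with edgeR 4.0.16 in R 4.3.3 (quasi-likelihood, two-sided, treatment as the only term, Benjamini-Hochberg adjustment over 11525 genes, threshold 0.05). The script was tested on simulated data, where it found 64% of 2-fold and 99% of 4-fold changes, with 7.39% false calls. The SE was derived from the fold change and the F statistic (its square root). Totals of 26453281 to 35565620 counts set the precision of rare genes. Members, lists and the naming rule were chosen with earlier results of these data known: values in every library for the sensors, phosphatase subunits and HSPA5, and per other role for up to 4 called members by smallest p and up to 2 others by level; in the further list, up to 4 genes per group by smallest p. DDIT3, ATF4, UBE2G2, HERPUD2 and the uncalled genes named in that list, and the promoter carriers, include names chosen after values were seen. Promoters came from RefSeq on GRCh38.p14 and 36 of 39 members matched. Protein sequences were not analysed here. Alternatives were RLE factors, library totals, no filter, 1 CPM in 3 libraries, DESeq2 1.42.0, limma-voom and limma on log2(TPM + 1) or log2(TPM + 0.1) (limma 3.58.1), a replicate block, removal of the length trend, each library left out and, added after the data were seen, removal of length and GC trends.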

Additional observations from a re-analysis of the deposited data

How the results depend on the processing

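With each library left out in turn, the number of members higher ran from 6 to 13 and lower from 3 to 11, of all genes from 1501 to 3091 higher and from 1593 to 3549 lower, and of other ER pathway genes from 16 to 32 higher and from 3 to 14 lower. On log2(TPM + 1), 713 genes, 2 members and 3 other ER pathway genes were higher, and on log2(TPM + 0.1) 691, 2 and 3. On the second scale rises made up 23.5% of called genes. With the length trend removed 10 other ER pathway genes were lower, and with length and GC trends removed (chosen after the data were seen) 15. The cause was not tested. Among the 18 called members, 5 kept the call in each of the 17 alternatives, and 7 of the 18 members not called were called in at least 1; none was reversed. HERPUD1 passed with RLE factors (adjusted p = 0.0486) and DESeq2 (0.0498).

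Replicate numbers were shared by the groups in the labels. Deviations from the group means correlated at r = 0.04, 0.10 and 0.15 across genes for numbers 1, 2 and 3, and each library correlated best with its own number, a hint from the data and not the design. With a replicate block 2306 genes rose and 2437 fell, among them 11 and 5 members, and PPP1R15B (edgeR adjusted p = 0.0527) and UGGT1 (0.0509) were no longer called. Depth limits DERL3, at about 1 CPM, and WFS1, which had too few counts for the test.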
